A study of Mus musculus with 4 samples.

Results

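The cells described here are phagocytes of mouse mammary tumours that carried transcripts of the chemokine genes Cxcl9 or Cxcl10 but almost none of the complement genes C1qa, C1qb and C1qc. They were selected on measured counts. A droplet barcode was called at 500 or more unique molecular identifiers (UMIs, each standing for 1 captured transcript), 250 or more genes and at most 20% mitochondrial UMIs. A called barcode was gated as a phagocyte when Lyz2, Cd68 and Csf1r together reached 3 UMIs and 0.1% of its UMIs, with at most 1 UMI of Cd3d, Cd3e and Cd3g and none of Siglech. A gated phagocyte became a member when Cxcl9 and Cxcl10 together reached 2 UMIs and the C1q genes stayed under 3 UMIs. This gave 138 members among 1344 gated phagocytes and 14555 called barcodes.

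The tumours grew from the HER2-positive line H605 in the mammary pad of FVB/NJ mice aged 6 to 8 weeks, and were taken at day 14. There were 2 tumours from wild type (WT) hosts and 2 from hosts lacking interleukin 1α (IL1α-/-). The genotype is that of the host and all tumours came from the same transplanted line, so the comparison concerns interleukin 1α made by the host, and each tumour was digested with collagenase and enriched for live cells. The protocol describes 2 pairs gathered on different days without saying which replicate belongs to which. Values for the 4 samples are given below in the order WT replicate 1, WT replicate 2, IL1α-/- replicate 1 and IL1α-/- replicate 2.

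CXCL9 and CXCL10 are chemokines that bind the receptor CXCR3 and draw activated T cells and natural killer cells. Interferon-γ, made by those lymphocytes, induces both genes in monocytes and macrophages, and Cxcl10 also responds to type I interferon and NF-kB. The complement component C1q is a product of mature tissue macrophages, so the limit on C1q removes cells with a strong macrophage programme.

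Cxcl9 (ENSMUSG00000029417) and Cxcl10 (ENSMUSG00000034855) are neighbours on the minus strand of chromosome 5 in GRCm38, at 92321347 to 92328079 and 92346638 to 92348889, with 18558 bases between them. Cxcl10 lies within the span of Art3 on the opposite strand, and no Art3 UMI was found in members. The other marker genes named for these cells are Gbp5 (ENSMUSG00000105504, chromosome 3, 142493978 to 142522344, plus strand), a guanylate-binding protein of cell-autonomous defence, and Ly6i (ENSMUSG00000022586, chromosome 15, 74979534 to 74983430, minus strand), a surface protein of the Ly6 family. The sequences upstream of the start of the first 3 genes are shown because these are the promoters whose transcripts define or mark the cells; no sequence of Ly6i is shown. They are from RefSeq for GRCm38.p6, are written 5′ to 3′ on the strand of the gene, and end at the RefSeq start site for Cxcl9 and Cxcl10. The Gbp5 sequence ends before the first exon of the protein-coding transcript, and it lies inside the gene span given above because GENCODE holds a transcript without a coding sequence that starts farther upstream. Capitals mark matches on either strand to 3 motifs: the interferon-γ activated site, GAS (TTCNNNGAA), the core of the interferon-stimulated response element (GAAA, any 2 bases, GAAA) and a NF-kB motif (GGGA, any 4 bases, CC).
Cxcl9, chr5:92328080-92328329, minus strand: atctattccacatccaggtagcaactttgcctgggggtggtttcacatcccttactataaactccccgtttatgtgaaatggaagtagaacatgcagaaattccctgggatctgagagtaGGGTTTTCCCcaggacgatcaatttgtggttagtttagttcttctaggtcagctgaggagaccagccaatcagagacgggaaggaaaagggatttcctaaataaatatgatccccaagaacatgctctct
Cxcl10, chr5:92348890-92349139, minus strand: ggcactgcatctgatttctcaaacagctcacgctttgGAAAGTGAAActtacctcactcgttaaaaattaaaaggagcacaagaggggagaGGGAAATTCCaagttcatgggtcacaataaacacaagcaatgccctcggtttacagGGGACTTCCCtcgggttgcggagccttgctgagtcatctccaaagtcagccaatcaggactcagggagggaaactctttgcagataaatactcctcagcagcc
Gbp5, chr3:142496684-142496899, plus strand: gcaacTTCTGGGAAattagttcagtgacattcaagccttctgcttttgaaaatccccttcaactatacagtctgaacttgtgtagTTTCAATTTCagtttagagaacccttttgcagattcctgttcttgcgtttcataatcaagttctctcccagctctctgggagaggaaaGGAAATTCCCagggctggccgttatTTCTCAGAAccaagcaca

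Within the 250 bases before its start, Cxcl9 held 1 match to the NF-kB motif, 130 to 121 bases upstream. Cxcl10 held 1 match to the interferon response core (213 to 204 bases upstream) and NF-kB matches at 159 to 150 and 103 to 94. Gbp5 held 2 GAS matches, at 245 to 237 and 52 to 44, with 1 interferon response core at 165 to 156 and 1 NF-kB match at 77 to 68. For Gbp5 only the farthest 216 of the 250 bases are shown. Its positions count from the RefSeq start and not from the end of the printed sequence. Of 32851 promoters in the table, 7.02% held the GAS motif, 2.98% the interferon response core and 17.6% the NF-kB motif in the same 250 bases. A match of letters does not show that a factor was bound.

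The 4 libraries held 6704859 to 28999819 mouse UMIs and 3213 to 4006 called barcodes, and the WT libraries were both deeper than either knockout library. The members of the 4 samples had median totals of 5743, 5134, 1752 and 3992 UMIs. Libraries shared 0 to 6 called barcodes. Il1a, the gene removed from the hosts, had 57, 58, 1 and 0 UMIs in all gated phagocytes, and a single member cell, of WT replicate 2, held 1 UMI. The p-values below measure only the spread between 4 tumours.

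How many phagocytes were members varied more between samples of 1 host genotype than between genotypes. The counts were 8 of 378 gated phagocytes in WT replicate 1, 78 of 610 in WT replicate 2, 31 of 115 in IL1α-/- replicate 1 and 21 of 241 in IL1α-/- replicate 2. These are shares of 2.12% (exact Clopper-Pearson 95% interval 0.918% to 4.13%), 12.8% (10.2% to 15.7%), 27.0% (19.1% to 36.0%) and 8.71% (5.48% to 13.01%). The groups overlapped, since WT replicate 2 stood above IL1α-/- replicate 2. Member shares averaged 7.45% ± 7.55 in WT and 17.8% ± 12.9 in IL1α-/- hosts (SD, n = 2 each). IL1α-/- minus WT was thus 10.4 percentage points (two-sided exact permutation p = 0.67, where the smallest p this test can give with 2 against 2 samples is 0.33). The knockout sample was 24.8 points above WT for replicate 1 and 4.07 points below it for replicate 2. Without IL1α-/- replicate 1 the difference was 1.26 points.

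As a share of all called barcodes the members made up 0.2%, 1.95%, 0.965% and 0.63%, with a group difference of -0.276 points (exact permutation p = 1). Gated phagocytes themselves made up 9.45%, 15.2%, 3.58% and 7.23% of called barcodes and were lower in both IL1α-/- samples (difference -6.93 points, exact permutation p = 0.33). Members were therefore a large share of a small phagocyte pool in IL1α-/- replicate 1.

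Depth and free RNA were examined beside these shares. With each phagocyte thinned to 1000 UMIs and 31, 68, 16 and 10 shallower ones left out, the member shares were 0.865%, 8.12%, 26.3% and 3.03%, in the same order of samples. As a comparison from another cell class, 1.24% (exact 95% interval 0.724% to 1.98%), 1.91% (1.27% to 2.75%), 1.25% (0.744% to 1.97%) and 3.01% (2.27% to 3.91%) of T cells held 2 or more Cxcl9 and Cxcl10 UMIs. Their median depths were 2892, 4387, 1501 and 3001 UMIs, against 4066, 4738, 1739 and 3831 in gated phagocytes. Thinned to 1000 UMIs the T cell shares were 0.446%, 0.414%, 0.517% and 1.02%. T cells held 3, 354, 50 and 31 Cxcl9 UMIs and 104, 105, 60 and 357 Cxcl10 UMIs, so in WT replicate 1 and IL1α-/- replicate 2 their share rests mainly on Cxcl10. Free RNA held more Cxcl9 than Cxcl10 in all 4 samples (87 and 25, 1136 and 132, 479 and 80, and 104 and 64 UMIs), and T cells did so only in WT replicate 2. The part of free RNA in the T cell share was not tested. Barcodes of at most 100 UMIs, which carry free RNA, held Cxcl9 at 45.1, 484, 644 and 84.9 counts per 1000000 mouse UMIs (CPM), in the same order of samples as the member share. The part of free RNA in the order of the shares was not tested. Members held Cxcl9 at 3641, 2449, 4692 and 1711 CPM, and T cells at 0.564, 42.3, 18.9 and 4.07 CPM.

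**Figure D1:**
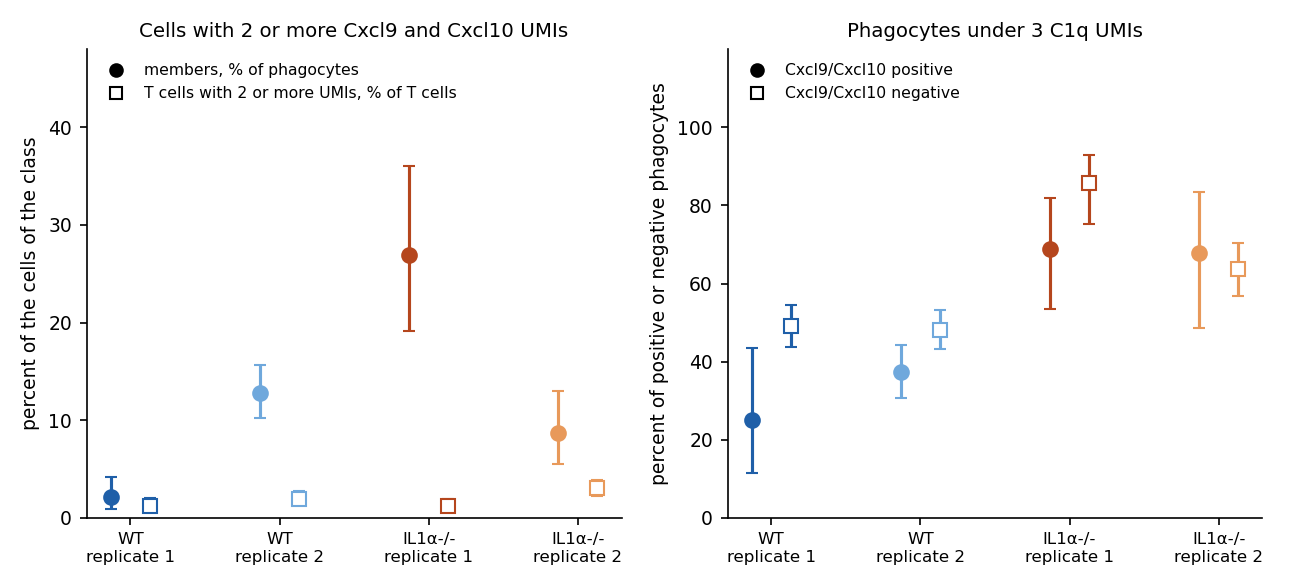
Left, percent of gated phagocytes that are members (circles) and percent of T cells with 2 or more Cxcl9 and Cxcl10 UMIs (squares) in each sample; right, percent of Cxcl9/Cxcl10-positive (circles) and negative (squares) phagocytes under 3 C1q UMIs; bars are exact 95% intervals for counting error. The member share ran from 2.12% to 27.0% with overlapping groups, while both circles of IL1α-/- samples on the right (68.9% and 67.7%) lie above both WT circles (25% and 37.3%).

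The chemokine counts per cell were uneven. Members held 208, 1222, 303 and 188 Cxcl9 UMIs and 7, 282, 84 and 41 Cxcl10 UMIs. In WT replicate 1, 1 cell held 197 of them, 91.6% of the sample's chemokine UMIs, and the other 7 cells held 2 to 4 each, so the level of that sample is the level of 1 cell. The most loaded cell held 9.18%, 17.0% and 38.0% in the other 3 samples. Cells with 10 or more chemokine UMIs numbered 1, 36, 13 and 4.

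Among C1q-low phagocytes, 52 stood just outside the chemokine limit with 1 UMI and 21 just inside with 2, and 63 held 3 to 9. Few cells lay near the C1q limit. Of all members 122 held no C1q UMI, 12 held 1 and 4 held 2, while 6 chemokine-positive phagocytes were kept out by exactly 3, 20 by 4 to 9 and 153 by 10 or more.

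Most members carried 1 of the 2 chemokines, not both. Cxcl9 alone was seen in 72 members, Cxcl10 alone in 26 and both in 40. By sample, both were seen in 2 of 8, 14 of 78, 19 of 31 and 5 of 21 members, so IL1α-/- replicate 1 had the most double-positive cells although its cells were the shallowest. Summed over members, Cxcl9 UMIs outnumbered Cxcl10 UMIs by 29.7, 4.33, 3.61 and 4.58 times. These counts chose the cells and are given as a description.

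**Figure D2:**
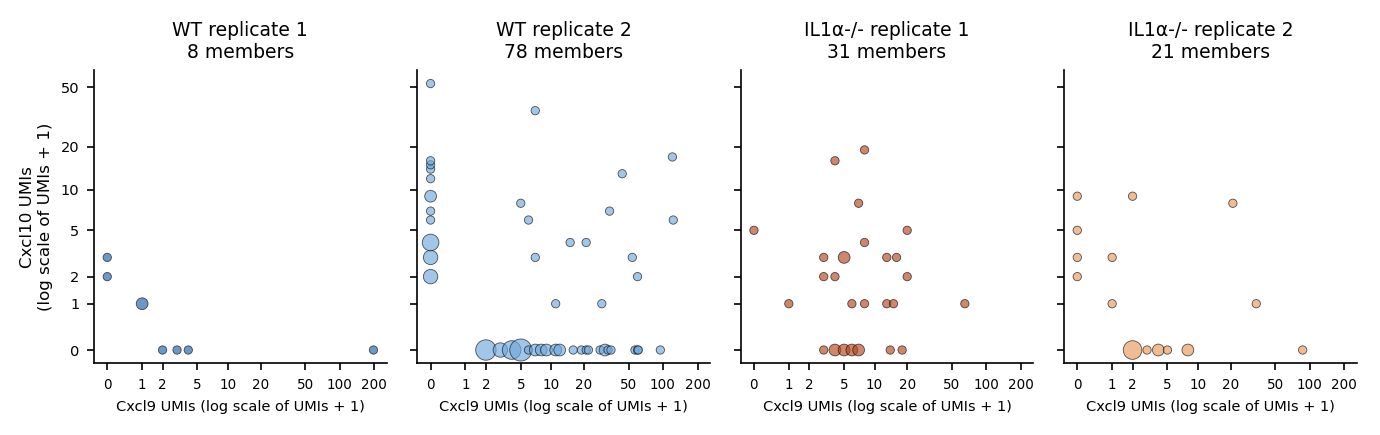
Cxcl9 UMIs (horizontal) and Cxcl10 UMIs (vertical) of every member, both on a log scale of UMIs + 1, with 1 panel per sample and larger points where several cells coincide. In WT replicate 1 a single cell with 197 Cxcl9 UMIs stands apart from 7 cells with 2 to 4 chemokine UMIs, and IL1α-/- replicate 1 has 19 of 31 cells off both axes.

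In WT replicate 2, the sample with most members, cells with only Cxcl10 and cells with only Cxcl9 differed in other genes; this split was examined after values were seen and is untested. Irf1, an interferon-induced transcription factor, stood at 717 CPM in the 19 Cxcl10-only cells and 116 CPM in the 45 Cxcl9-only cells, and Gbp5 at 471 and 144 CPM. The class II gene H2-Ab1 went the other way (2715 and 6086 CPM), as did Ccl24, a chemokine of alternatively activated macrophages (574 and 3184 CPM). In IL1α-/- replicate 2, with 4 and 12 such cells, Irf1 (243 and 438 CPM), Gbp5 (122 and 179 CPM) and H2-Ab1 (6448 and 5617 CPM) stood in the opposite order, while Ccl24 did not (203 and 7888 CPM). In WT replicate 1, with 2 and 4 such cells, Irf1 (95.3 and 243 CPM), Gbp5 (0 and 81.0 CPM) and Ccl24 (286 and 122 CPM) were also opposite to WT replicate 2, and H2-Ab1 was not (0 and 8913 CPM). IL1α-/- replicate 1 had 1 Cxcl10-only cell.

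Members supplied a minor part of the tumours' chemokine transcripts. They held 25.6%, 13.4%, 14.4% and 21.3% of the Cxcl9 UMIs of all called barcodes, and 1.62%, 16.6%, 16.2% and 4.77% of the Cxcl10 UMIs. Chemokine-positive phagocytes with 3 or more C1q UMIs held 47.5%, 28.9%, 8.5% and 8.96% of Cxcl9, so in both WT samples they held more than the members and in both IL1α-/- samples less. Barcodes outside the phagocyte gate held 25.9%, 57.1%, 76.9% and 67.9% of Cxcl9 and 90.3%, 65.6%, 83.0% and 93.4% of Cxcl10. T cells held 41.5% of Cxcl10 in IL1α-/- replicate 2.

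**Figure D3:**
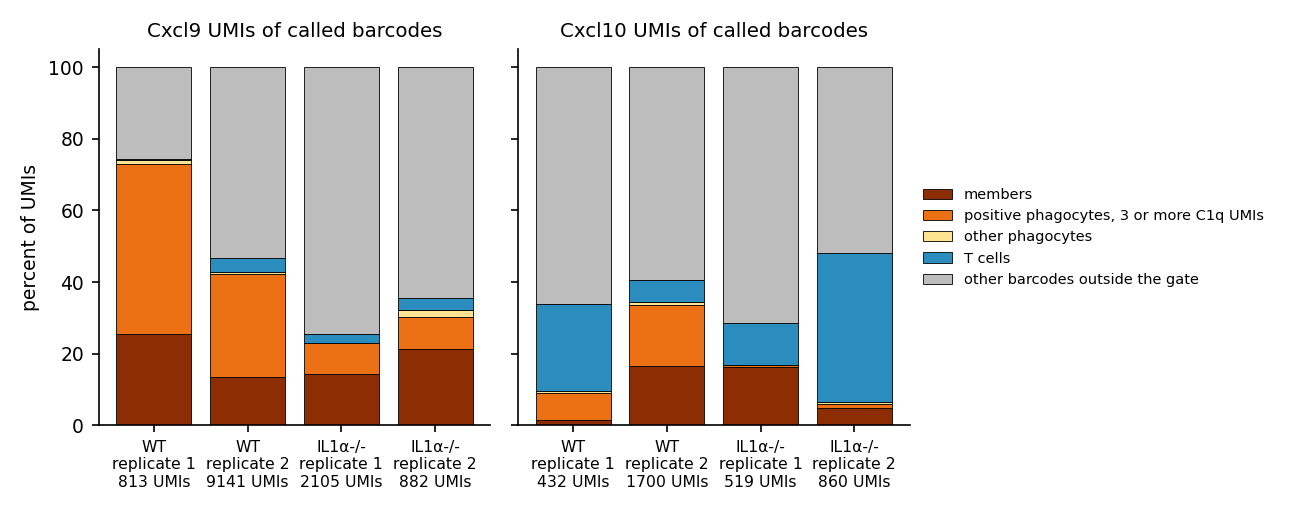
Percent of the Cxcl9 (left) and Cxcl10 (right) UMIs of all called barcodes held by members, by chemokine-positive phagocytes with 3 or more C1q UMIs, by other phagocytes, by T cells and by the remaining barcodes, with the total UMIs of each sample under its bar. Members held 13.4% to 25.6% of Cxcl9, and the 3 samples other than WT replicate 1 had over 57% of it outside the gate.

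Genes that the rule did not use were compared between members and all other gated phagocytes of the same sample, as a log2 ratio of CPM + 50. The cells on both sides were divided by counts from the same libraries, so this is a description with no test. Of 3270 genes at a mean of 50 CPM or more in members or in the others, 468 (14.3%) were higher in members in all 4 samples. In all 4, 397 (12.1%) were lower. A gene could reach 50 CPM through 1 side alone, and the named genes and list counts below can include such genes. Klrk1, Traf1 and Cnn3 reached it through members only, and Rnase2a through the others only. The median of all genes was 0.03.

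The genes with the highest ratios included guanylate-binding proteins and other interferon-inducible genes. Gbp2 stood at 438, 1245, 945 and 937 CPM in members against 163, 479, 402 and 455 CPM in the others, a median log2 ratio of 1.17. Gbp5 stood at 52.5, 255, 403 and 155 CPM against 23.3, 75.7, 51.7 and 50.6 CPM (1.15). Ly6i stood at 35.0, 243, 821 and 100.1 CPM against 8.79, 45.4, 149 and 48.6 CPM (1.11). Members were above the others in all 4 samples for these 3 genes, and IL1α-/- replicate 1 had the highest Gbp5 and Ly6i. The WT replicate 1 values rest on 3 Gbp5-positive and 2 Ly6i-positive cells; over all samples 69 of 138 members held a Gbp5 UMI and 54 a Ly6i UMI.

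The next genes were of several kinds. Klrk1, an activating receptor of lymphocytes that also occurs on myeloid cells, had a median log2 ratio of 1.01. It rests on 6, 35, 10 and 4 member UMIs (105, 70.2, 155 and 36.4 CPM). T cells held it at 65.4, 90.9, 144 and 120.5 CPM, and the part of lymphocyte transcripts in the Klrk1 value was not tested. Prdx5 (0.97) and Sod2 (0.95) encode antioxidant enzymes, and Traf1 (0.95) and Malt1 (0.85) act in NF-kB signalling. Psme2 (0.92) and Psmb8 (0.76) belong to the interferon-inducible proteasome, Tmem173 (0.85) encodes the DNA-sensing adaptor STING, and Slfn5 (0.88) and Ms4a4c (0.77) are interferon-inducible. Ranbp1, Tubb5, Mxd1, Clec12a, Cnn3, Ybx3 and Ly6a had ratios of 0.76 to 0.88. Against C1q-low phagocytes with under 2 chemokine UMIs, Gbp2 was at 1.26, Gbp5 at 1.25 and Ly6i at 1.05, while Ms4a4c was at 0.02. Against chemokine-positive phagocytes with 3 or more C1q UMIs, Gbp2 (0.15) and Gbp5 (0.17) were higher in 2 of 4 samples, Ly6a stood at -0.01, and Ly6i (1.06) and Traf1 (1.18) were higher in all 4. High Gbp2 and Gbp5 were thus shared with the chemokine-positive cells that the C1q limit left out. Against those cells Ly6i rests on 2 and 2 UMIs in WT replicate 1 and on 11 and 0 in IL1α-/- replicate 2. Traf1 rests on 5 member UMIs in WT replicate 1, against 6.82 CPM in those cells, the level of 1 UMI. With all cells thinned to 1000 UMIs, Traf1 was at 0.53, Malt1 at 0.44, Tubb5 at 0.24 and Cnn3 at -0.11, and Malt1 was at 0.34 without the 13 members described below that held markers of another class.

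The lowest ratios were those of macrophage genes, which the limit on C1q partly selects. Ccl8, a monocyte-attracting chemokine, stood at 17.5, 118, 170 and 801 CPM in members against 5829, 5873, 2699 and 6501 CPM in the others (-4.39), but its ratio against C1q-low phagocytes was -0.50. Chil3, a chitinase-like protein of alternatively activated cells, was at 0, 275, 61.9 and 491 CPM against 225, 1599, 1441 and 6743 CPM (-3.05), and its ratio against C1q-low phagocytes was -2.94. Mmp12, the macrophage elastase, had -2.39 and -2.10 in those comparisons. Rnase2a, Selenop, Cd63, Apoe, Ms4a7, Ctsl and Timp2 had median ratios of -2.34 to -1.80 against all others and -0.82 to -0.32 against C1q-low phagocytes. Chil3 and Mmp12 were thus low in members also beside cells with equally little C1q.

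**Figure D4:**
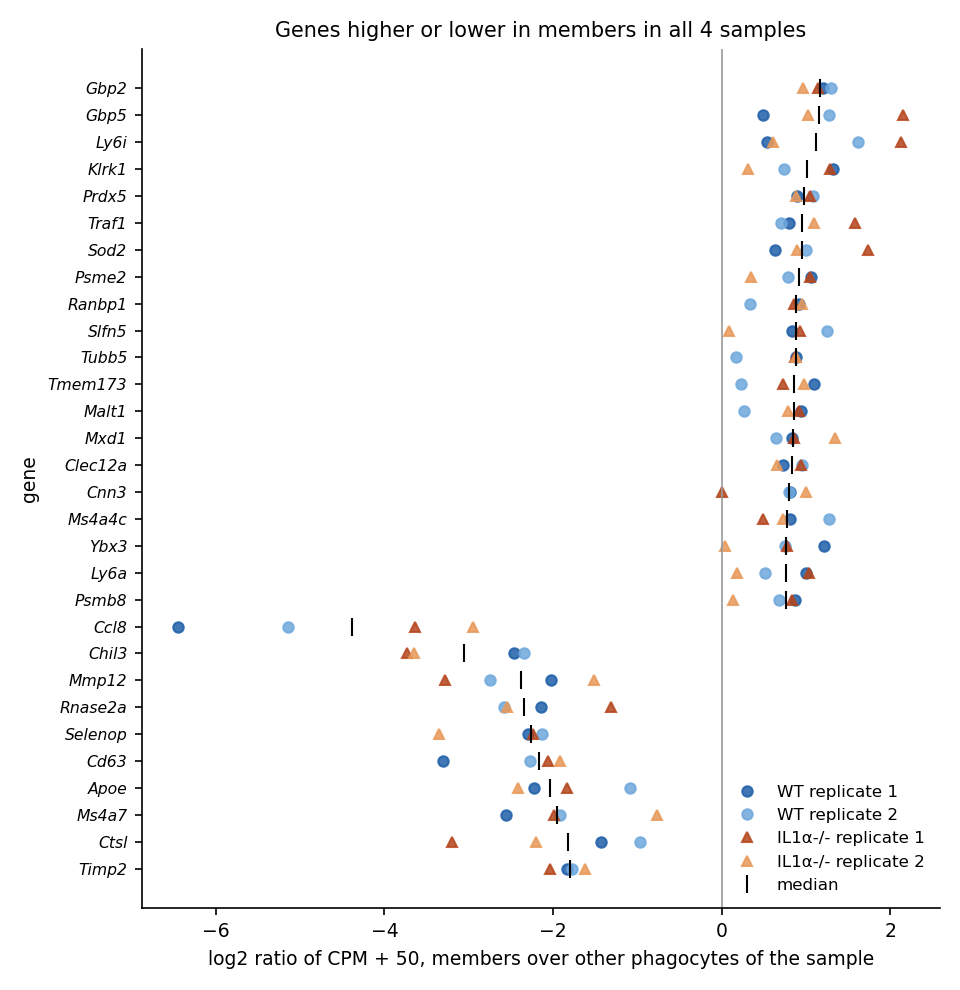
Log2 ratio of CPM + 50 in members over the other gated phagocytes of the same sample (horizontal) for the 20 genes with the highest and the 10 with the lowest median among genes on the same side in all 4 samples; points are samples and the tick is their median. Gbp2 is near 1.17 in every sample, and Ccl8 is the lowest at a median of -4.39.

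Gene lists were read against the 14.3% of all genes higher and 12.1% lower in all 4 samples. Of 12 interferon-γ induced GTPases at 50 CPM or more, 7 were higher in members in all 4 samples and 1, Gbp2b, was lower, with a list median of 0.57. Gbp3 (0.62) and Ifi47 (0.74) were among the 7, while Iigp1 was not (-0.06). Of 11 type I interferon response genes 8 were higher (median 0.56), among them Ifi209 (0.65) and Zbp1 (0.56). The levels of Isg15, an ubiquitin-like type I interferon product, were only 17.5, 78.2, 92.9 and 209 CPM in members, and Ifit1, Ifit3, Mx1 and Oasl1 were at 0 in at least 1 sample. GBP, Ly6 and class I genes have near-identical copies, so the split of UMIs among copies is uncertain.

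Among interferon receptors and signalling genes, 3 of 13 were higher, among them the kinase gene Jak2 (0.48) and Irf1. Irf1 stood at 228, 309, 588 and 391 CPM in members against 90.0, 219, 459 and 302 CPM in the others. The receptor chain Ifngr1 was lower in members in all 4 samples (median -0.30). Interferon-γ itself was almost absent from members, with 1 Ifng UMI in all, and T cells held it at 44.5, 232, 106 and 116 CPM.

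Class I antigen presentation was marked by the processing machinery. Of 17 genes 8 were higher in all 4 samples (median 0.35), with the transporter Tap1 (0.45), the proteasome subunits Psmb9 (0.35) and Psmb10 (0.54) and the activator Psme1 (0.51) beside the 2 named above. The class I chains H2-K1 (-0.29) and H2-D1 (-0.07) and their partner B2m (-0.11) were not. Of 9 class II genes none was higher and 2, H2-Aa and Ctss, were lower in all 4. The checkpoint ligand Cd274 (PD-L1) was higher in all 4 samples, at 140, 128, 356 and 155 CPM against 31.6, 87.8, 155 and 142 CPM. It was the only 1 of 8 costimulation and checkpoint genes to be so, and 1 was lower in all 4, with a list median of -0.205.

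Monocyte genes were mixed. Ccr2, the receptor that brings monocytes from blood, was higher in members in all 4 samples, at 1768, 1056, 836 and 564 CPM against 788, 656, 580 and 418 CPM. S100a4 (0.74), S100a6 (0.37), Ly6i and Ly6a made up the 5 of 14 monocyte genes that were higher. Ly6c2, the marker of classical monocytes, was at 438, 369, 1053 and 146 CPM against 99.8, 84.5, 391 and 310 CPM, higher in 3 samples and lower in IL1α-/- replicate 2. Of 12 macrophage genes outside the rule, 10 were lower (median -1.35), including Mrc1 (-1.79), Apoe and Selenop. Against chemokine-positive phagocytes with more C1q, the median of the monocyte genes was 1.06, and Plac8, another monocyte gene, had a median ratio of 3.01. Against C1q-low phagocytes with under 2 chemokine UMIs the median of the monocyte genes was -0.27, and that of Plac8 0.41.

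Markers of other cell types were examined in the members. Those of mast cells and basophils were at 0, and 18 UMIs of T cell markers were found, none of them of Trac, Cd8a or Cd8b1. Conventional dendritic markers summed to 90.2 to 805 CPM in WT and 124 to 173 CPM in IL1α-/- samples, against 49.6 to 166 CPM in other phagocytes, with Itgae at 0. Neutrophil markers summed to 104 to 158 and 54.6 to 124 CPM with Mmp9 and G0s2 at 0, endothelial markers to 35.0 to 36.1 and 63.7 to 92.9 CPM with Cdh5 at 0, and B cell markers to at most 15.5 CPM with Cd79a and Ms4a1 at 0. Epithelial markers summed to 60.1 to 70.0 and 30.97 to 109 CPM with Krt19 and Erbb2 at 0. Plasmacytoid markers summed to 175 to 206 and 170 to 273 CPM with Siglech, which the rule excludes, and Ccr9 at 0.

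Fibroblast markers reached 1581 CPM and natural killer markers 180 CPM in WT replicate 2, with at most 54.6 and 15.5 CPM in the IL1α-/- samples. These UMIs sat in few cells of WT replicate 2, where 1 member held 5 or more fibroblast UMIs and 3 held 5 or more natural killer UMIs. Over all classes, 13 members held 5 or more UMIs of another class, 2 in WT replicate 1, 8 in WT replicate 2 and 3 in IL1α-/- replicate 2. Conventional dendritic markers accounted for 6 of the 13 and epithelial markers for 3. Without those 13, the numbers of genes higher and lower in all 4 samples were 433 and 386. Scrublet marked 4 members as doublets, 2 in WT replicate 2 and 2 in IL1α-/- replicate 1, and without marked cells the numbers were 450 and 398.

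Among chemokine-positive phagocytes, the part with little C1q was larger in both IL1α-/- samples than in both WT samples. All gated phagocytes with 2 or more chemokine UMIs numbered 32, 209, 45 and 31. In this description, in which the rule's own counts are used and no test is made, 25% (exact 95% interval 11.5% to 43.4%), 37.3% (30.8% to 44.3%), 68.9% (53.4% to 81.8%) and 67.7% (48.6% to 83.3%) of them had under 3 C1q UMIs and so were members. These shares averaged 31.2% ± 8.71 in WT and 68.3% ± 0.811 in IL1α-/- hosts (SD, n = 2 each), 37.2 points apart. With cells thinned to 1000 UMIs the shares were 20% (3 of 15 cells), 44.0%, 74.3% and 70.0% (7 of 10 cells). At 2000 UMIs they were 20% (3 of 15 cells), 44.4%, 50% (12 of 24 cells) and 66.7% (10 of 15 cells).

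The same shares among phagocytes with under 2 chemokine UMIs were 49.1%, 48.1%, 85.7% and 63.8%, also higher in both IL1α-/- samples, by 26.1 points on average. Thinned to 2000 UMIs they were 47.8%, 52.2%, 57.9% and 64.7%, 11.3 points apart, with 19 such cells left in IL1α-/- replicate 1. C1q-low cells thus made up a larger share of both sets in both IL1α-/- samples than in both WT samples. Less C1q in knockout phagocytes is a result already known from these samples. Within the C1q-low phagocytes the members made up 4.49%, 28.8%, 34.1% and 13.5%, with overlapping groups.

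Gene expression in members was compared between hosts by values only, because the planned test required 10 members per sample and WT replicate 1 had 8. Of 1485 genes at a mean of 100 CPM or more, 315 (21.2%) were higher in both IL1α-/- samples than in both WT samples and 272 (18.3%) were lower. The median log2 ratio of all these genes was 0.01. A gene could reach the mean of 100 CPM through 1 host alone, and the list counts below can include such genes. One UMI in members is 17.5 CPM in WT replicate 1 and 2.0 CPM in WT replicate 2. Of the 57135 UMIs of WT replicate 1 members, 2 cells held 19698 and 11993. These cells also held 6 and 38 UMIs of conventional dendritic markers, so the values of that sample lean on them.

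Of 14 NF-kB response genes, 10 (71.4%, beside 21.2% of all genes) were higher in both IL1α-/- samples and none was lower, with a list median of 0.64. Cxcl2, which encodes a neutrophil-attracting chemokine, stood at 35.0, 148, 914 and 2530 CPM. Tnfaip2, a TNF-induced gene, stood at 87.5, 227, 991 and 683 CPM. Nfkbiz, an inducible nuclear regulator of NF-kB, stood at 70.0, 62.1, 310 and 400 CPM, so it passed the limit of 100 CPM only through the IL1α-/- samples. Both knockout samples exceeded both WT samples for these 3 genes, as they did for Rel, Nfkb1, Tnfaip3, Traf1, Icam1, Ccl4 and Ier3. Nfkbia, Il1b, Sod2 and Bcl2a1b overlapped between groups, and Il1b was at 980, 882, 1363 and 473 CPM.

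Of 11 genes induced by tissue dissociation, Fosb, Jund and Egr1 were higher and Jun, Hspa1a and Hspa1b lower in both IL1α-/- samples, with a list median of -0.13. Without WT replicate 1, 6 of 9 were higher (66.7%, beside 33.9% of all genes) with a median of 0.39. Egr1 stood at 70.0, 86.2, 139 and 437 CPM and Hspa1a at 438, 60.1, 30.97 and 9.1 CPM. The part of dissociation in the NF-kB values was not tested. Without the 13 members that held markers of another class, 9 of 13 NF-kB genes were higher, and with members thinned to 1000 UMIs 6 of 15 were (40.0%, beside 16.5% of all genes).

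Interferon-γ induced GTPases overlapped between hosts in members, with 1 of 11 higher (Irgm1) and 1 lower (Gbp7) and a median of 0.41, which was -0.06 without WT replicate 1 and 1.02 without WT replicate 2, where 7 of 9 were higher (77.8%, beside 37.2% of all genes). Gbp5 and Ly6i overlapped as well, with WT replicate 1 lowest in both. Of 10 interferon receptor and signalling genes, 2 were higher in both IL1α-/- samples, Irf1 (228, 309, 588 and 391 CPM) and Jak2, and none was lower. Of 14 class I genes, H2-K1 (1138, 1611, 3391 and 2111 CPM), H2-Q7 and H2-T23 were higher and none was lower. Of 8 class II genes, H2-Aa, H2-Ab1 and Cd74 were higher and H2-DMa lower. Beside the 21.2% of all genes these counts are 9.09% of the GTPases, 21.4% of the class I genes and 37.5% of the class II genes. The class I count was 10 of 14 (71.4%) both without WT replicate 2 and without IL1α-/- replicate 2, beside 37.2% and 38.2% of all genes.

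**Figure D5:**
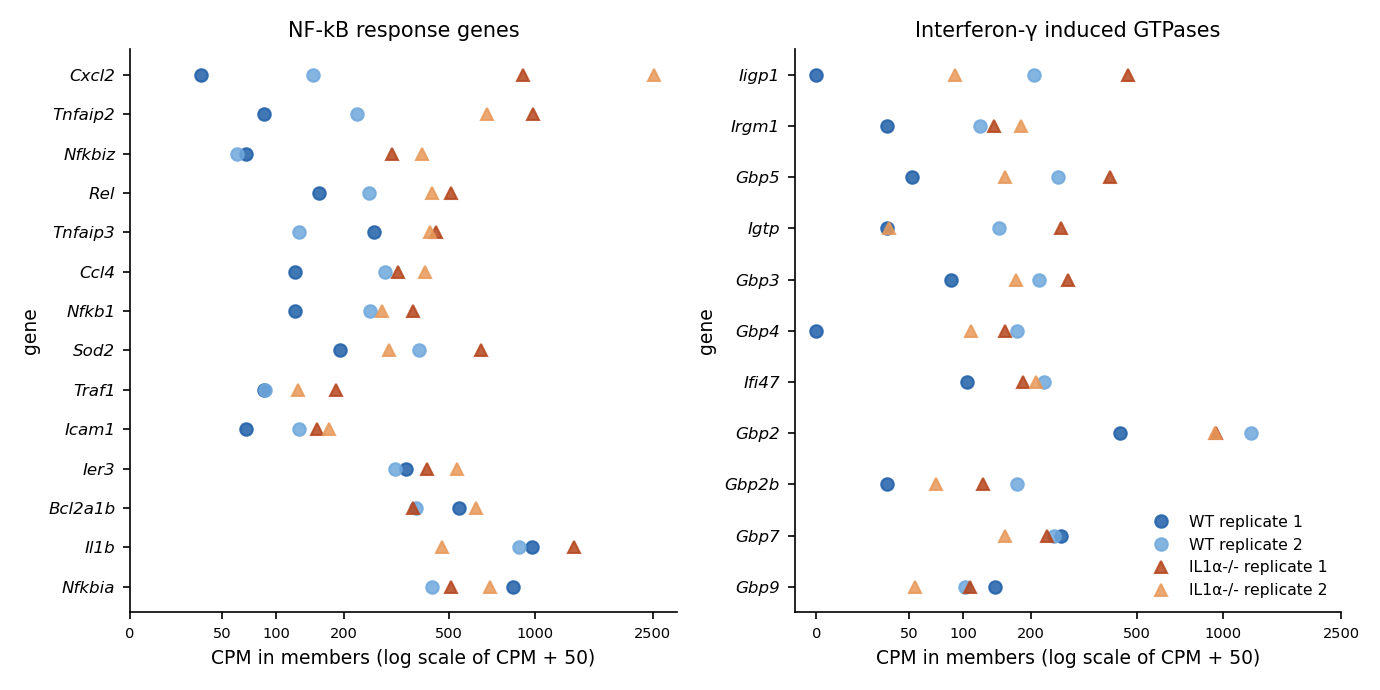
CPM in members (horizontal, log scale of CPM + 50) for NF-kB response genes (left) and interferon-γ induced GTPases (right) at a mean of 100 CPM or more, with circles for WT and triangles for IL1α-/- samples. Both triangles lie to the right of both circles for 10 of 14 NF-kB genes and for 1 of 11 GTPases, Irgm1.

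Genes of suppressive or alternative activation divided in 2 ways. Thbs1, encoding thrombospondin 1, was at 70.0, 74.2, 449 and 382 CPM, and Ptgs2, the inducible prostaglandin synthase, at 17.5, 118, 341 and 400 CPM. Hmox1 and Vegfa were also higher in both IL1α-/- samples, making 4 of 9 (44.4%, beside 21.2% of all genes); the list median was 1.15, and -0.68 without IL1α-/- replicate 2. Arg1, which encodes arginase 1, was instead at 0, 511, 0 and 1729 CPM and was seen only in the members of replicates numbered 2, in 25 and 7 cells. The floor of 3 UMIs taken for a count of 0 is 52.5 CPM in WT replicate 1 and 46.5 CPM in IL1α-/- replicate 1. Chil3 (0, 275, 61.9 and 491 CPM) and Ccl24 (123, 2341, 170 and 3658 CPM) had the same 2 samples highest. Mrc1 followed that order too, at 140, 200.4, 92.9 and 355 CPM. The order did not hold for Arg1 and Chil3 in C1q-low phagocytes with under 2 chemokine UMIs. There Arg1 was at 133, 1100, 1439 and 1938 CPM and Chil3 at 223, 574, 1979 and 5795 CPM, with both IL1α-/- samples highest.

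Il1rn, which encodes the interleukin 1 receptor antagonist, was at 228, 259, 681 and 619 CPM, and Cd40, Cd274 and Cd14 were also higher in both IL1α-/- samples. In the lists of these genes, 1 of 3 inflammatory cytokines was higher and 0 lower. Of 3 costimulation and checkpoint genes 2 were higher and 1 lower, and of 5 macrophage genes 1 was higher and 2 lower. Among all genes 21.2% were higher and 18.3% lower. Genes lower in both included Ccr2 (1768, 1056, 836 and 564 CPM), Apoe (2205, 1978, 557 and 655 CPM), Selenop, and Ccl17, a chemokine of dendritic cells and alternatively activated macrophages. Ccl17 was at 1418, 170, 0 and 0 CPM. The highest value came from the sample whose members also had the highest sum of conventional dendritic markers (805 CPM), and the part of such cells in it was not tested.

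A test was possible for all 317 chemokine-positive phagocytes without the C1q limit, a set that holds the members and was added after the data were seen. Of 2944 genes, 11 (0.374%) were higher and 3 (0.102%) lower in IL1α-/- hosts at an adjusted p under 0.05 (edgeR, quasi-likelihood, Benjamini-Hochberg), and 364 had an unadjusted p under 0.05. By edgeR, Cxcl2 rose by 3.01 on the log2 scale (SE 0.26; adjusted p = 0.00574), Thbs1 by 3.04 (SE 0.42; adjusted p = 0.0287) and Nfkbiz by 2.31 (SE 0.33; adjusted p = 0.0288). Nos2, the inducible nitric oxide synthase, rose by 3.52 (SE 0.54), but only 4 members, all of IL1α-/- hosts, held a Nos2 UMI. The immediate early genes Nr4a3, Nr4a2, Csrnp1 and Ifrd1 rose by 1.81 to 2.51, as did Wsb1 (1.93) and AA467197 (3.15); Eif3j1 (2.95) shares sequence with a close copy and is uncertain. C1qb (-2.08), H2-M2 (-4.99) and mt-Atp6 (-1.56) were lower. C1qb is a gene of the rule, so its value is a description and not a finding, although the C1q limit did not choose these cells. The members' median mitochondrial share was 2.10%, 2.49%, 1.79% and 1.59%, also lower in both IL1α-/- samples, and its part in the mt-Atp6 value was not tested.

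All 11 genes that rose in this test were also higher in both IL1α-/- samples among the members alone, which are part of the tested cells. Members held 64581 of the 105534 tested UMIs in IL1α-/- replicate 1 and 109886 of 170190 in IL1α-/- replicate 2. The overlap is therefore largely built in and is no separate support. Among the 1485 genes compared in members, 21.2% were higher in both, but Nos2 was too low to be among them. Nos2 had 0, 0, 1 and 7 UMIs in members, so its place in IL1α-/- replicate 1 is that of 1 UMI. Of lists, 2 of 21 NF-kB genes passed and 15 of 21 had groups that did not overlap with IL1α-/- higher, beside 22.3% of all 2944 genes. Of 9 dissociation genes none passed, 4 had an unadjusted p under 0.05 and a higher value in IL1α-/- hosts (beside 7.51% of all genes) and 7 were higher in both IL1α-/- samples (beside 22.3%), and the part of dissociation in these calls was not tested. The count of calls depended on single libraries: it was 0 without WT replicate 1, 0 without WT replicate 2, 6 without IL1α-/- replicate 2 and 32 without IL1α-/- replicate 1. It was also 0 with marked doublets removed, where 339 genes had an unadjusted p under 0.05, and 43 with DESeq2. The fold changes of the 14 genes kept their sign in every alternative that tested them, with ranges of 2.82 to 3.71 for Cxcl2, 2.00 to 2.65 for Nfkbiz and 2.23 to 3.66 for Thbs1.

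Whether the host effect differed between chemokine-positive phagocytes and the others was tested as an interaction with the sample as a block. Of 7009 genes, 0 (0.0%) had an adjusted p under 0.05 in edgeR, 212 had an unadjusted p under 0.05, and DESeq2 called 1. For Cxcl2 the interaction was 1.44 (adjusted p = 0.225), and for Thbs1 -0.42 (adjusted p = 1). With 1 library left out 6 to 72 genes were called, with doublets removed 10 and without the filter 22, so the count of 0 holds for the edgeR fit with all 4 libraries, the filter and all cells.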

How the data were processed

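Per the labels' protocols, live-enriched tumour cells were sequenced with the 10x Genomics single cell 3' chemistry. The deposited values are raw UMI counts per gene and barcode, made by the authors with Cell Ranger 3.1.0 per the submitters' processing notes, and the feature names show a combined human and mouse mm10 reference. Only mouse features were used, and 509 to 1514 human UMIs per library were set aside. Members, gene lists and tests were chosen with earlier results of these data known. Counts were summed per sample over cells, because cells are not replicates. CPM is a gene's UMIs per 1000000 mouse UMIs of the summed cells, and log2 ratios use a pseudocount of 50 CPM.

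Shares were compared with an exact permutation test over 6 assignments of 4 samples. Intervals and floors cover counting error only. Doublets were scored with Scrublet (scanpy 1.11.5), 0.8% per 1000 barcodes. Host tests used edgeR 4.0.16 in R 4.3.3 (filterByExpr, TMM, quasi-likelihood, Benjamini-Hochberg over all genes tested) and DESeq2 1.42.0 as an alternative, and were tested on simulated data. The planned host tests in members were not run, as WT replicate 1 had 8 members. Genes named against other phagocytes are the 20 highest and 10 lowest medians among genes on 1 side in all 4 samples; other named genes belong to the lists or passed the edgeR test, and single genes without a rule were chosen after their values were seen. Positions are from GENCODE vM21 for GRCm38.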

Additional observations from a re-analysis of the deposited data

Results flagged for a closer look

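The member share of gated phagocytes moved in opposite directions for the 2 replicate numbers: IL1α-/- minus WT was 24.8 percentage points for replicate 1 and -4.07 for replicate 2. The same held for the share of called barcodes (0.765 and -1.32 points) and for all chemokine-positive phagocytes (30.7 and -21.4 points). The difference between the 2 was not tested, and the labels do not say whether a replicate number marks a collection day.

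Chemokine transcripts also appeared in called barcodes outside the phagocyte gate, which no comparison of members uses. Of Cxcl9 UMIs these held 25.9% and 57.1% in WT and 76.9% and 67.9% in IL1α-/- samples. Of Cxcl10 UMIs they held 90.3% and 65.6% in WT and 83.0% and 93.4% in IL1α-/- samples. In IL1α-/- replicate 1, 23 barcodes with 5 or more UMIs of epithelial genes held 43.8% of Cxcl9 and 41.6% of Cxcl10. In IL1α-/- replicate 2, barcodes with 5 or more UMIs of fibroblast genes held 54.4% of Cxcl9, and in WT replicate 1 such barcodes held 49.5% of Cxcl10.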

How the results depend on the processing

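With 8, 78, 31 and 21 members, depth limits single genes in WT replicate 1 most, where 3 UMIs are 52.5 CPM. The difference in the member share of phagocytes kept its sign in 8 other settings (4.63 to 12.9 points) and when 1 library was left out (1.26 to 19.5 points), but with the replicate block it was 24.8 points within replicate 1 and -4.07 within replicate 2. The difference in the share of called barcodes turned to 0.0332 points after thinning to 1000 UMIs and to 0.765 within replicate 1, and ran from -1.15 to 0.597 when 1 library was left out. The C1q-low share of positive phagocytes differed by 26.2 to 43.9 points in all settings run, the block included (43.9 and 30.4). Genes higher in members in all 4 samples numbered 277 after thinning to 1000 UMIs and 602 to 727 when 1 library was left out, where fewer samples have to agree; Cnn3 turned to -0.11 after thinning. Genes not overlapping between hosts in members made up 32.2% to 38.2% (higher) and 30.2% to 37.1% (lower) when 1 library was left out, which leaves fewer samples to overlap. Calls in positive phagocytes were 43 with DESeq2, 116 without the filter, 10 with the replicate block, 0 with a limit of 3 chemokine UMIs (255 at unadjusted p under 0.05), 0 with doublets removed and 0 to 32 when 1 library was left out. Interaction calls were 1 with DESeq2, 22 without the filter, 10 with doublets removed and 6 to 72 when 1 library was left out. The cause of these moves was not tested. A lone sample of a group was assumed to vary like the other group. Since the host tests in members were not run, neither were their other settings.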
